A study of Mus musculus with 6 samples.

Results

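The enzymes that write and erase marks on histones and DNA were followed in isolated pancreatic islets of C57BL6 mice on 2 diets. The genes were taken by name from the deposited expression table: lysine methyltransferases (Kmt and Setd), Ezh1 and Ezh2, arginine methyltransferases (Prmt), lysine demethylases (Kdm), acetyltransferases (Kat), deacetylases (Hdac and Sirt), and the DNA enzymes Dnmt and Tet. This gave 71 of the 48321 gene names, in 10 families of 2 to 15 genes. The rule reads gene names and no measured value, though it was set with earlier results of these data known. The chow group had 3 samples from mice on normal chow, and the high-fat group had 3 samples from mice whose diet held 60 percent of its calories as fat, started at 3 months of age and kept for 4 months. All titles carry WT. No sex, no age of the chow mice and no statement that each sample is a separate animal is given, so p-values measure only sample-to-sample spread, which may be technical. The comparison asks how islet transcripts differ between the diets, in a series on palmitic acid in beta-cells.

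Histone marks set how readily a gene is transcribed. Methyltransferases of the Kmt2 and Setd1 type mark active promoters and enhancers on lysine 4 of histone H3, and Ezh1 and Ezh2 place the silencing mark of Polycomb on lysine 27. Demethylases of the Kdm family remove such marks, acetyltransferases loosen chromatin, and Hdac and sirtuin enzymes take acetyl groups off again. Dnmt enzymes methylate cytosine in DNA and Tet enzymes oxidise that methyl group, the first step of its removal. Many of these enzymes draw on metabolites such as S-adenosylmethionine, acetyl-CoA, NAD and alpha-ketoglutarate. In the islet they are studied for their part in keeping beta-cell identity and limiting beta-cell division.

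Values are CPM, read counts scaled to the size of the library, and log2 differences are of CPM plus 1. The column of chow replicate 2 was the mean of chow replicates 1 and 3 in all 48321 genes and was left out, which leaves n = 2 for chow and n = 3 for the high-fat diet. The summed CPM of the 5 libraries ran from 674482 (chow replicate 3) to 963615 (high-fat replicate 1), so the listed genes do not hold the same share of every library. Implied depths were 18.8 to 35.1 M reads. The beta-cell markers, among them Ins1, Ins2 and Pdx1, made up 6.85% to 11.9% of the summed CPM of a library, and 0 of 10 were at 0 in all libraries. The 18 acinar markers, of the enzyme-secreting tissue around the islets, made up 26.2% and 10.1% of the chow libraries and 11.2%, 1.51% and 4.45% of high-fat libraries 1, 2 and 3. Fibroblast markers summed to 239 and 135 CPM versus 42.4, 52.2 and 77.5 CPM. Summed duct, endothelial and neuron or glia markers were also lower in every high-fat library than in both chow libraries. Alpha, delta and PP cell markers went the other way, with 13030 and 7736 CPM under chow versus 14180, 15050 and 15850 CPM. Immune markers overlapped, at 58.1 and 41.6 CPM versus 37.3, 43.9 and 44.4 CPM. The part of these other cells in the differences below was not tested. Small non-coding RNAs without a poly(A) tail (Rn7sk, Rpph1, Rmrp, Rn7s1 and Rn7s2) summed to 9.12 and 16 CPM in the chow libraries and to 31337, 26502 and 20791 CPM in the high-fat libraries. Since these RNAs split the libraries exactly as diet does, diet and type of library cannot be told apart for any gene given here. In whole islets, fewer cells of a type and less RNA per cell cannot be told apart either.

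Most of the enzymes differed little between the diets, and 2 demethylases stood far above the others. Of 71 genes, 69 reached a mean of 0.5 CPM and were tested with limma across all 16939 such genes; Dnmt3l and Prmt8 did not. In the tested genes, 8 were higher on the high-fat diet (Kdm2a, Kdm5b, Hdac4, Tet2, Tet3, Kat6b, Kdm4b and Kdm4a) and 2 were lower (Sirt1 and Ezh1) at a Benjamini-Hochberg adjusted p below 0.05. That is 11.6% higher and 2.9% lower, beside 14.9% and 8.78% of all genes tested. Among protein-coding genes averaging 5 CPM or more, a level that 62 of the 69 enzymes and all 10 of these calls reach, the shares were 18.4% and 7.95%. In 33 enzymes the high-fat values all fell on 1 side of both chow values, 25 above and 8 below, or 47.8% of those tested, beside 55.4% of all genes. The enzymes' median log2 fold change was 0.12, against 0.05 for all genes, and 60 of 69 lay between -0.5 and 0.5. The share of enzymes called was thus not above that of other genes. The plot of fold changes by family shows all 69 tested genes.

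**Figure D1:**
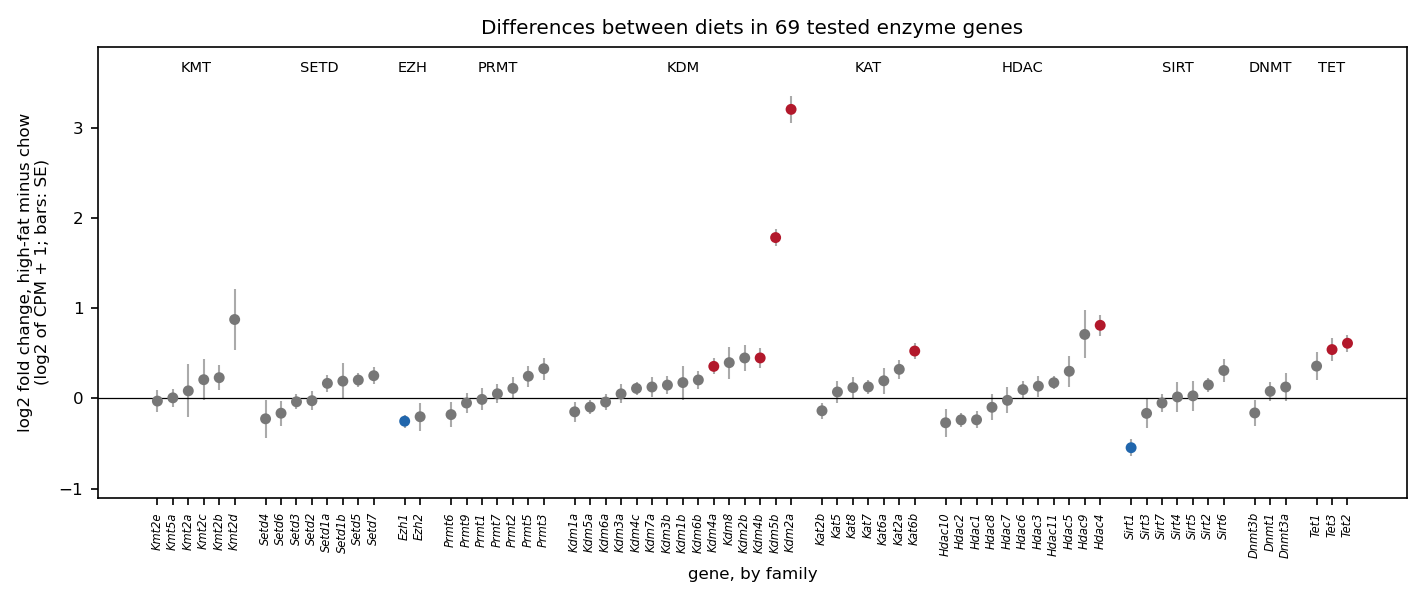
The y axis gives the log2 fold change (high-fat minus chow, of CPM plus 1) of each of the 69 tested enzyme genes with its standard error as a bar, and the x axis lists the genes by family. Red points passed the threshold as higher, blue as lower, grey did not pass; Kdm2a at 3.21 and Kdm5b at 1.79 lie apart, and 60 genes lie between -0.5 and 0.5.

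Kdm2a showed the largest difference of the group. It encodes a demethylase of lysine 36 of histone H3 that binds unmethylated CpG islands. Its levels were 73.5 and 96.2 CPM under chow, against 718, 776 and 869 CPM in the high-fat libraries. Every high-fat library was several times above both chow libraries. Kdm2a rose by 3.21 ± 0.15 on the log2 scale (SE), a 9.28-fold ratio of the mean CPM (limma adjusted p = 2.65e-05), and ranked 107 among the 16939 tested genes by fold change. Its close relative Kdm2b, which recruits a Polycomb complex to CpG islands, was at 33.2 and 25.7 CPM under chow, then 35.2, 45.3 and 41.1 CPM under high-fat feeding. Those groups did not overlap, yet the difference of 0.45 ± 0.14 did not pass (limma adjusted p = 0.0621).

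Kdm5b, a demethylase that removes methyl groups from lysine 4 of histone H3, was the next largest. Its levels were 51 and 59.9 CPM under chow, then 191, 186 and 202 CPM under high-fat feeding, so the libraries of a diet lay close together and the diets far apart. It rose by 1.79 ± 0.10 (a 3.48-fold ratio, limma adjusted p = 5.77e-05). Its paralog Kdm5a, which acts on the same lysine, did not pass, at 61 and 64.4 CPM under chow, then 58, 59.5 and 58.3 CPM under high-fat feeding (-0.10 ± 0.07, limma adjusted p = 0.383). GENCODE M21 places no other gene over Kdm2a or Kdm5b. At most 0.365% and 0.0843% of their 31-base words occurred in the transcripts of any 1 other gene. Kdm2a and Kdm5b passed in all 17 alternative settings, with adjusted p of at most 0.00134 and 0.00181 (limma).

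**Figure D2:**
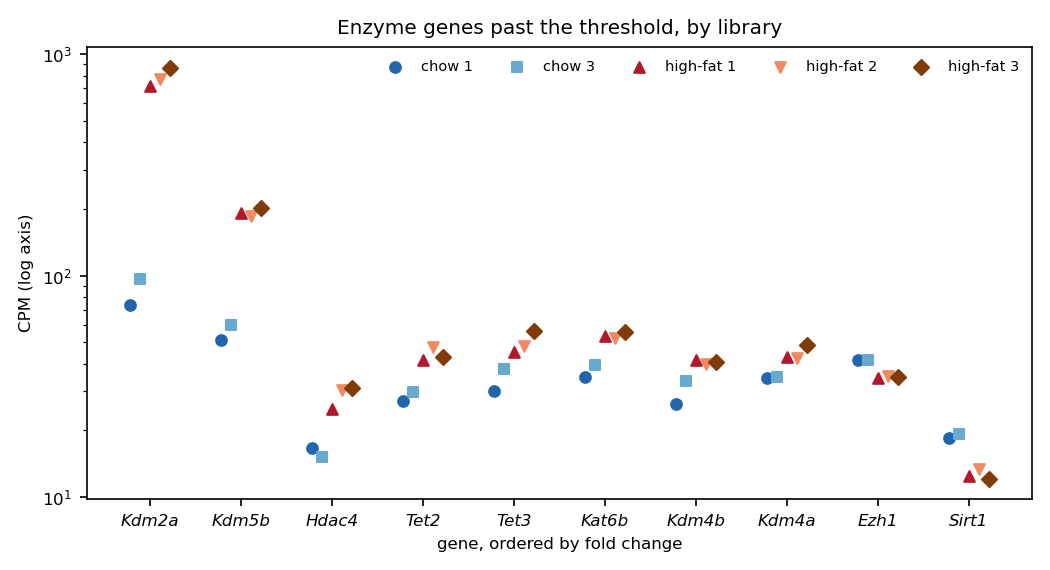
The y axis gives CPM on a log axis for the 10 enzyme genes that passed the threshold, ordered on the x axis by fold change, with 1 symbol for each of the 2 chow and 3 high-fat libraries. In each of the 10 genes the symbols of the diets do not overlap, and the gap is widest for Kdm2a (73.5 and 96.2 against 718 to 869 CPM).

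Among the other demethylases, both called genes were erasers of lysine 9 and 36 methylation. Kdm4a went from 34.5 and 34.8 CPM under chow to 42.9, 42.6 and 48.6 CPM under high-fat feeding (0.36 ± 0.09, limma adjusted p = 0.0304), and Kdm4b from 26.3 and 33.3 to 41.7, 40 and 40.7 CPM (0.45 ± 0.11, limma adjusted p = 0.0279). Both were higher in all 3 high-fat libraries, but the calls held in only 6 (Kdm4a) and 8 (Kdm4b) of 17 alternative settings. Kdm4c was at 32.4 and 33.6 CPM versus 36, 35.4 and 35.8 CPM and did not pass (0.11 ± 0.08). The lysine 27 demethylases did not pass either: Kdm6a, also called Utx, was at 28.7 ± 1.44 CPM under chow, then 27.9 ± 1.48 CPM under high-fat feeding, and Kdm6b at 51.1 ± 2.12 and 59.2 ± 5.44 CPM (SD, n = 2 and 3). The remaining demethylases had fold changes from -0.15 (Kdm1a, the flavin-dependent enzyme that works with CoREST) to 0.40 (Kdm8). Of 15 demethylase genes, 4 rose and 0 fell, and the high-fat libraries lay above both chow libraries in 8 and below in 1, beside 14.9% and 8.78% of all genes called and 55.4% not overlapping.

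Of 3 Tet genes, 2 rose and 0 fell, beside 14.9% and 8.78% of all genes tested. Tet2 was at 27.2 and 29.7 CPM under chow, then 41.7, 47.5 and 42.9 CPM under high-fat feeding, and rose by 0.61 ± 0.09 (limma adjusted p = 0.00565). Tet3 was at 30 and 37.9 CPM under chow, then 45.3, 48 and 56 CPM under high-fat feeding (0.54 ± 0.13, limma adjusted p = 0.0279). Tet1, the least expressed of these oxidases, was at 9.58 and 11.2 CPM under chow, then 11.4, 15.7 and 13.9 CPM under high-fat feeding; its libraries did not overlap but it did not pass (0.36 ± 0.15, limma adjusted p = 0.128). The call of Tet3 held in 10 of 17 alternative settings, and ended among others without chow replicate 1 (0.38, limma adjusted p = 0.114) and without high-fat replicates 2 (0.0754) and 3 (0.0826).

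The DNA methyltransferases did not pass. Dnmt3a, which sets methylation in non-dividing cells, was at 77.9 and 111 CPM under chow, then 95.1, 110.5 and 100.03 CPM under high-fat feeding, so that both ends of its range fell in the chow group. Dnmt1, which copies methylation after replication, was at 16.5 and 19.2 CPM versus 18.1, 18.2 and 20.5 CPM. Dnmt3b was at 3.4 and 2.73 CPM versus 2.62, 2.67 and 2.59 CPM, with every high-fat library below chow (-0.16 ± 0.15, limma adjusted p = 0.462). Per kilobase of the longest coding transcript, Dnmt3a was the highest of the family at 10.2 CPM per kb, followed by Dnmt1 at 3.15 CPM per kb. Without chow replicate 3, Dnmt3a passed as higher (0.38, limma adjusted p = 0.0468), and without chow replicate 1 its fold change was -0.13.

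Sirt1, an NAD-dependent deacetylase that supports insulin secretion in beta-cells, was the enzyme with the largest fall. It was at 18.5 and 19.3 CPM under chow, then 12.4, 13.4 and 12.1 CPM under high-fat feeding, with a clear gap between the diets. Sirt1 fell by 0.55 ± 0.10 on the log2 scale (limma adjusted p = 0.00972) and kept its call in 17 of 17 alternative settings. The other nuclear sirtuins did not pass: Sirt6 was at 5.07 ± 0.449 CPM under chow, then 6.53 ± 0.451 CPM under high-fat feeding and Sirt7 at 16.5 ± 1.53 and 15.9 ± 0.862 CPM (SD, n = 2 and 3). The cytoplasmic Sirt2, the highest of the family at 19.6 CPM per kb, was at 40.6 and 37.1 CPM versus 44.4, 43.2 and 42 CPM (0.15 ± 0.08, limma adjusted p = 0.219). The mitochondrial Sirt3, Sirt4 and Sirt5 had fold changes from -0.17 to 0.03 and overlapped between the diets.

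Promoter sequence is shown for 4 genes to set 2 that rose beside the 2 that fell. Each line gives the 250 bases before the RefSeq transcript start on GRCm38.p6, read 5′ to 3′ along the gene, with GC boxes (GGGCGG, or CCGCCC on the other strand) in capitals. The build behind the deposited table is not given in the sources used here. Kdm2a has no entry in the promoter table. The windows are Kdm5b, chr1:134559928-134560177 on the + strand; Tet2, chr3:133544391-133544640 on the - strand; Sirt1, chr10:63339036-63339285 on the - strand; and Ezh1, chr11:101226464-101226713 on the - strand.
Kdm5b: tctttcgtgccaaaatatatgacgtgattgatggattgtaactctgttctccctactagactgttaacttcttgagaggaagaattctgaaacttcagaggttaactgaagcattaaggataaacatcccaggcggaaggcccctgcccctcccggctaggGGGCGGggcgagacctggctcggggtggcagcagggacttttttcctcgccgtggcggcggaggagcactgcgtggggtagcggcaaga
Tet2: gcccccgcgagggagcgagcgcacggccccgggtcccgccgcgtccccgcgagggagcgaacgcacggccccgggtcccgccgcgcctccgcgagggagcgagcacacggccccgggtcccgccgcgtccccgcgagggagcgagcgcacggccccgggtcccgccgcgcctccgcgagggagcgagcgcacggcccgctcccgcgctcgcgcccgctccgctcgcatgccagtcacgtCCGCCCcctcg
Sirt1: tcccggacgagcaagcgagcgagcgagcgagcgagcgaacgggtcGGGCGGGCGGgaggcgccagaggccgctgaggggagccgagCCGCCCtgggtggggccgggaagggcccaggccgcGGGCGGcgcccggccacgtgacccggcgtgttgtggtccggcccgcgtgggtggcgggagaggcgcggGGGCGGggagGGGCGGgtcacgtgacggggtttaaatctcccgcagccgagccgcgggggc
Ezh1: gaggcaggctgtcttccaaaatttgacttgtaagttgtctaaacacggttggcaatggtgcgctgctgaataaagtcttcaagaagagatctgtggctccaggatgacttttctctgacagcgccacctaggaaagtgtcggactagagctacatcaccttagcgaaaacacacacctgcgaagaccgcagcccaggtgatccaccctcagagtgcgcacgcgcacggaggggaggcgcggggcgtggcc

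These 4 windows held 13 (Kdm5b), 51 (Tet2), 39 (Sirt1) and 14 (Ezh1) CpG dinucleotides. The median was 17 over the 85 windows of the 59 enzymes with an entry, and 6 over all 32851 windows. GC boxes numbered 1, 1, 6 and 0 in the same order, counting overlapping matches on both strands. In the other enzymes that rose and had an entry, they numbered 4 (Hdac4), 8 (each window of Kat6b), 0 (Kdm4a) and 1 (Tet3). A GC box stood in 52 of the 85 enzyme windows (61.2%), beside 32.7% of all windows. A cAMP response element (TGACGTCA, both strands) was in 1 enzyme window (1.18%), beside 1.55% of all, and an E-box (CACGTG) in 8 (9.41%), beside 6.02%, Sirt1 among them. These are matches of letters in a window and their relation to the fold changes was not tested.

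The class II deacetylase Hdac4 rose, and 0 of the other 10 Hdac genes passed, beside 14.9% higher and 8.78% lower of all genes tested. Hdac4 and its class IIa relatives shuttle between nucleus and cytoplasm and act mostly as corepressors. Hdac4 was at 16.6 and 15.2 CPM under chow, then 24.9, 30.4 and 31.1 CPM under high-fat feeding (0.81 ± 0.12, limma adjusted p = 0.00503). Gm37048, an unclassified transcript on the opposite strand within Hdac4, was at 0.166 and 0.122 CPM under chow, then 14.95, 19.4 and 16.5 CPM under high-fat feeding. Of the 31-base words of Hdac4, 21.9% also occurred in the transcripts of 1 other gene. The sources used here do not say whether counting used strand. The part of reads from other genes in the Hdac4 difference was not tested. Hdac9 varied widely, at 5.04 and 9.91 CPM under chow, then 13.7, 13.8 and 9.72 CPM under high-fat feeding, and overlapped between the diets (0.71 ± 0.27, limma adjusted p = 0.0956). Hdac5 (60.4 and 94.1 against 94.95, 94.2 and 90.6 CPM) and Hdac7 (12.6 ± 1.86 against 12.4 ± 1.68 CPM; SD, n = 2 and 3) overlapped too. Without chow replicate 3, Hdac5 passed as higher (0.62, limma adjusted p = 0.00509).

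Hdac1 and Hdac2, the catalytic core of the Sin3, NuRD and CoREST complexes, were tight within each diet. Hdac2 was at 41.3 and 41.1 CPM under chow, then 34.3, 34.8 and 35.3 CPM under high-fat feeding (-0.24 ± 0.07, limma adjusted p = 0.0581). Hdac1 was at 16.9 and 17.3 CPM versus 14.6, 14.7 and 13.8 CPM (-0.24 ± 0.09, limma adjusted p = 0.105). Every high-fat library was below chow for both genes. They passed as lower under median-ratio scaling (limma adjusted p = 0.024 for Hdac2 and 0.0497 for Hdac1) and under a trimmed mean of M values (0.0262 and 0.0499). With length and GC trends removed, Hdac2 was at -0.06 (limma adjusted p = 0.573) and Hdac1 at -0.21 (0.143). Of the Hdac1 words, 34.8% also occur in Gm10093, listed at 17.5 to 23.6 CPM, so its reads may have been divided between the 2 names. Hdac3, the enzyme of the NCoR complex, overlapped between the diets at 24.2 ± 2.31 and 26.7 ± 2.82 CPM (SD, n = 2 and 3). Per kilobase the tubulin deacetylase Hdac6 (25.3) and the class IV enzyme Hdac11 (18.5 CPM per kb) were the highest deacetylases, and neither passed.

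Of 7 acetyltransferases, 1 rose and 0 fell, beside 14.9% and 8.78% of all genes tested. Kat6b, a MYST-family enzyme that acetylates lysine 23 of histone H3, was at 34.9 and 39.3 CPM under chow, then 53.4, 52.2 and 55.9 CPM under high-fat feeding (0.53 ± 0.09, limma adjusted p = 0.0076). The diets were well separated. Its paralog Kat6a was at 67.2 and 92.9 CPM versus 86.7, 87.2 and 98.5 CPM and overlapped, and passed as higher only without chow replicate 3 (0.43, limma adjusted p = 0.0308). Kat2a, the acetyltransferase of the SAGA complex, was at 18.8 and 19.2 CPM under chow, then 25.3, 21.3 and 25.6 CPM under high-fat feeding (0.32 ± 0.11, limma adjusted p = 0.0663). Its paralog Kat2b was at 58.5 and 53.8 CPM versus 53.3, 52.1 and 47.6 CPM (-0.14 ± 0.09, limma adjusted p = 0.292). Kat7, the highest per kilobase at 11.7 CPM per kb and a partner of the origin recognition machinery, was at 39.2 ± 1.38 and 43 ± 0.765 CPM (SD, n = 2 and 3) and did not pass.

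Of the 2 Ezh enzymes, 1 fell and 0 rose, beside 8.78% and 14.9% of all genes tested. Ezh1, the form that prevails in non-dividing cells, was at 41.6 and 41.6 CPM under chow, then 34.5, 35.1 and 34.8 CPM under high-fat feeding. The spread within each diet was small beside the gap between them, and Ezh1 fell by 0.25 ± 0.07 on the log2 scale (limma adjusted p = 0.0478). That call sat at the threshold and held in 8 of 17 alternative settings. It ended when any of the 5 libraries was left out (limma adjusted p from 0.0728 to 0.131). Ezh2, the form of dividing cells, was at 2.59 and 3.08 CPM under chow, then 2.02, 2.41 and 2.56 CPM under high-fat feeding (-0.20 ± 0.16, limma adjusted p = 0.38). Per kilobase, Ezh1 stood at 8.92 and Ezh2 at 0.909 CPM per kb over the 5 libraries.

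The large lysine 4 methyltransferases Kmt2a, Kmt2c, Kmt2d and Setd1b differed more between the chow libraries than between the diets. Setd1a did not, at -0.14 for chow replicate 3 minus replicate 1 and 0.17 between the diets. Kmt2d, which marks enhancers, was at 50.7 and 120 CPM in chow libraries 1 and 3, against 122, 139 and 177 CPM in high-fat libraries 1, 2 and 3 (0.88 ± 0.34, limma adjusted p = 0.101). Its highest chow library thus came close to its lowest high-fat library. Kmt2a, the founding member of the family also called Mll1, was at 82.2 and 167 CPM under chow, then 103, 123 and 153 CPM under high-fat feeding. For Kmt2c, the other enhancer enzyme, the values were 91.2 and 155 against 118, 137 and 161 CPM. In Setd1b, a promoter enzyme, they were 43.3 and 71.1 against 58.5, 60.8 and 72.1 CPM. In each of these 4 genes chow replicate 1, with the acinar share of 26.2%, was the lowest of the 5 libraries. In Kmt2a, Kmt2c, Kmt2d and Setd1b high-fat replicate 1, with an acinar share of 11.2%, was the lowest on its diet. Chow replicate 3, with a similar share of 10.1%, was above high-fat replicate 1 in Kmt2a, Kmt2c and Setd1b, but not in Kmt2d. High-fat replicate 2, with the lowest share (1.51%), was below high-fat replicate 3 (4.45%) in all 4 genes. The part of acinar RNA in these values was not tested. Without chow replicate 3, Kmt2d passed as higher (1.49, limma adjusted p = 0.00504), as did Kmt2c (0.59, 0.0463) and Setd1b (0.54, 0.0297).

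Transcript length went with the difference between the 2 chow libraries. Across the 69 tested enzymes, log2 of chow replicate 3 over replicate 1 and log2 transcript length had Pearson's r = 0.49 and Spearman's rho = 0.39, beside 0.16 and 0.17 over 13704 protein-coding genes. For the fold change between diets, r was 0.39 and rho 0.47 across the enzymes, beside 0.06 and 0.09. These describe genes that share the same libraries and are not independent, so no test is given. With trends of length and GC content removed, 6 enzymes were higher and 2 lower, beside 14.1% and 7.56% of 13704 genes tested. The calls of Kdm4a and Kdm4b ended there (limma adjusted p = 0.0693 and 0.0833).

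**Figure D3:**
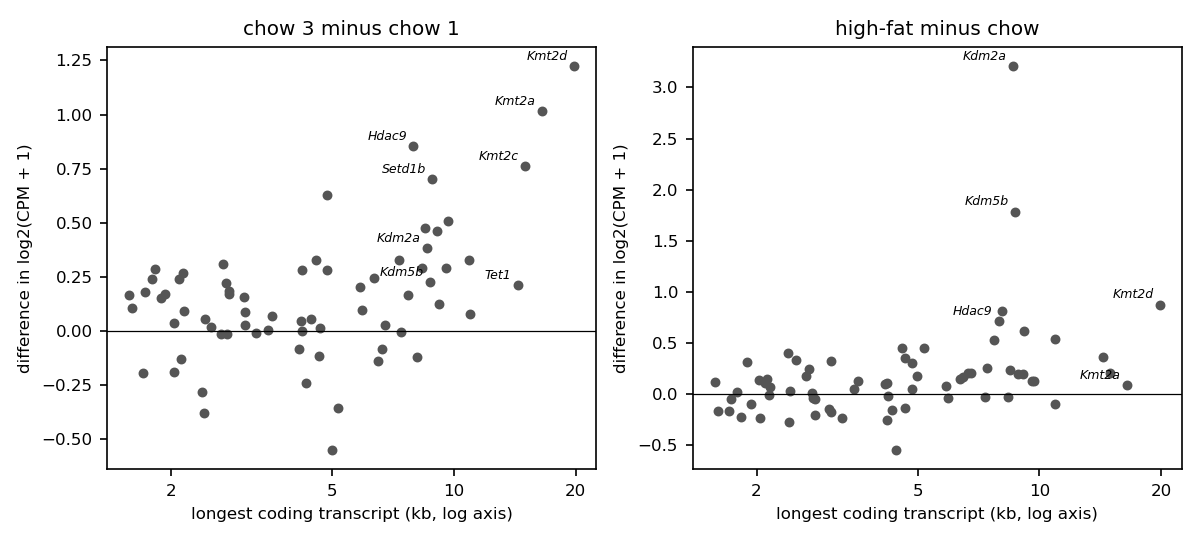
Each point is 1 of the 69 tested enzyme genes, with the length of its longest coding transcript in GENCODE M21 on the x axis (kb, log axis). The left y axis is log2(CPM + 1) of chow replicate 3 minus replicate 1 and the right y axis is the log2 fold change between diets; the longest transcripts (Kmt2d, Kmt2a, Kmt2c) lie high on the left (1.22, 1.02 and 0.76), and Kdm2a and Kdm5b stand apart on the right.

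The remaining methyltransferases were steadier. Of the 6 Kmt, 8 Setd and 8 Prmt genes, 0 passed in either direction by limma with the deposited CPM. Over all genes tested, 14.9% were higher and 8.78% lower. Kmt2d, Setd7, Setd5 and Prmt3 had unadjusted limma p below 0.05. Setd7, which places a single methyl group on lysine 4 of histone H3 and on other proteins, was at 97.8 and 97.3 CPM under chow, then 107, 117 and 125 CPM under high-fat feeding (0.25 ± 0.09, limma adjusted p = 0.0895). Setd5 was at 103 and 105 CPM versus 115, 120 and 124 CPM (0.20 ± 0.08, limma adjusted p = 0.107). Both had every high-fat library above chow. Setd3, an actin histidine methyltransferase and the highest of its family at 35 CPM per kb, was at 98 ± 0.642 and 95.6 ± 4.58 CPM, and Setd2, the enzyme of lysine 36 trimethylation, at 76 ± 11 and 74.3 ± 2.6 CPM (SD, n = 2 and 3). Kmt2e, the highest Kmt gene at 15.1 CPM per kb, and Kmt5a, which methylates lysine 20 of histone H4, had fold changes of -0.03 and 0.01.

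Among the arginine methyltransferases, Prmt3, which methylates a ribosomal protein, was at 7.39 and 7.49 CPM under chow, then 8.73, 9.61 and 10.6 CPM under high-fat feeding (0.33 ± 0.12, limma adjusted p = 0.0941). Prmt5, the main source of symmetric arginine dimethylation, was at 13.4 and 16.8 CPM versus 18.1, 17.6 and 18.3 CPM (0.25 ± 0.12, limma adjusted p = 0.162), and without chow replicate 3 it passed as higher (0.40, limma adjusted p = 0.0386). Prmt1, the main asymmetric enzyme and the highest at 11.5 CPM per kb, overlapped between the diets at 24.8 ± 3.4 and 24.6 ± 2.41 CPM (SD, n = 2 and 3). The other tested members had fold changes from -0.18 (Prmt6) to 0.11 (Prmt2).

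Ratios of related enzymes within a library do not depend on how libraries are scaled. Of 12 pairs, 4 did not overlap between the diets (1 higher and 3 lower), beside 55.4% of all single genes tested. No share over other pairs of genes was computed. Kmt2c stood at 1.8 and 1.3 times Kmt2d in the chow libraries and at 0.974, 0.99 and 0.908 times in the high-fat libraries, a log2 difference of -0.68. For Kat6a over Kat6b the ratios were 1.92 and 2.36 against 1.62, 1.67 and 1.76 (log2 difference -0.34). Kat2a over Kat2b gave 0.321 and 0.356 against 0.474, 0.41 and 0.537 (0.48), and Prmt1 over Prmt5 gave 1.67 and 1.62 against 1.32, 1.55 and 1.24 (-0.27). Each of these had an exact two-sided permutation p = 0.2, the smallest that 2 against 3 libraries can give, and 0.6 after adjustment over the 12 pairs. The other 8 pairs overlapped. Hdac1 over Hdac2 was 0.408 and 0.421 in chow and 0.426, 0.422 and 0.389 on the high-fat diet, and Ezh1 over Ezh2 was 16.1 and 13.5 against 17, 14.5 and 13.6. Tet2 over Tet3, Dnmt3a over Dnmt1, Setd1a over Setd1b, Kdm4a over Kdm4b, Kdm6a over Kdm6b and Hdac4 over Hdac5 were the rest.

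**Figure D4:**
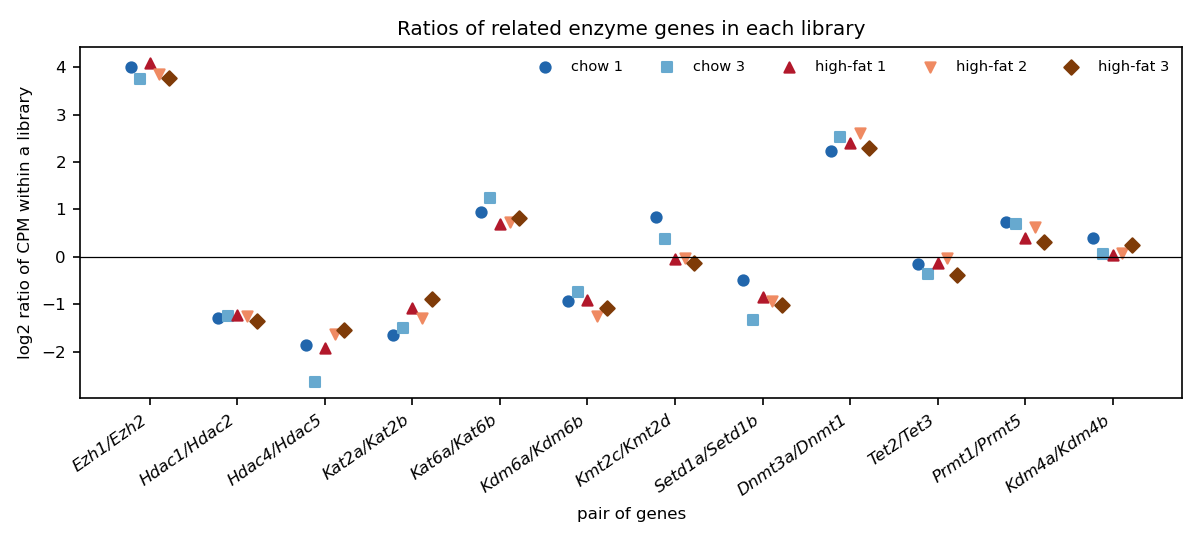
The y axis gives the log2 ratio of the CPM of 2 related enzyme genes in the same library for the 12 pairs on the x axis, with 1 symbol per library (2 chow, 3 high-fat). The high-fat symbols lie below both chow symbols for Kat6a/Kat6b, Kmt2c/Kmt2d and Prmt1/Prmt5 and above them for Kat2a/Kat2b; the other 8 pairs overlap.

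How many enzymes counted as changed depended on the scaling of the libraries. With library sizes computed on the genes other than acinar and insulin genes, the median of all genes moved from 0.05 to -0.33, and the enzymes' median from 0.12 to -0.32. These sizes were sums of the listed CPM, so this setting also evens out the summed CPM of the listed genes. Those sums ran from 674482 (chow replicate 3) to 963615 (high-fat replicate 1). The part of each step in the shift was not tested. There 2 enzymes were higher (Kdm2a, 2.75, and Kdm5b, 1.33) and 27 lower, beside 4.75% and 38.3% of all genes. The enzymes' median exceeded that of all genes by 0.07 with the deposited CPM and by 0.01 in that setting. Hdac4 (0.38, limma adjusted p = 0.0527), Tet2 (0.17, 0.291), Tet3 (0.10, 0.626), Kat6b (0.08, 0.588) and Kdm4b (0.01, 0.975) lost their calls there, and Kdm4a turned to -0.09 (0.529). Sirt1 (-0.98) and Ezh1 (-0.70) kept theirs. With median-ratio scaling 8 enzymes were higher and 4 lower, beside 12.6% and 11.1% of all genes. With the acinar score as a covariate 5 were higher (Kdm2a, Kdm5b, Hdac4, Tet2 and Kat6b) and Sirt1 alone was lower. Over all genes those shares were 6.28% and 3.96%.

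**Figure D5:**
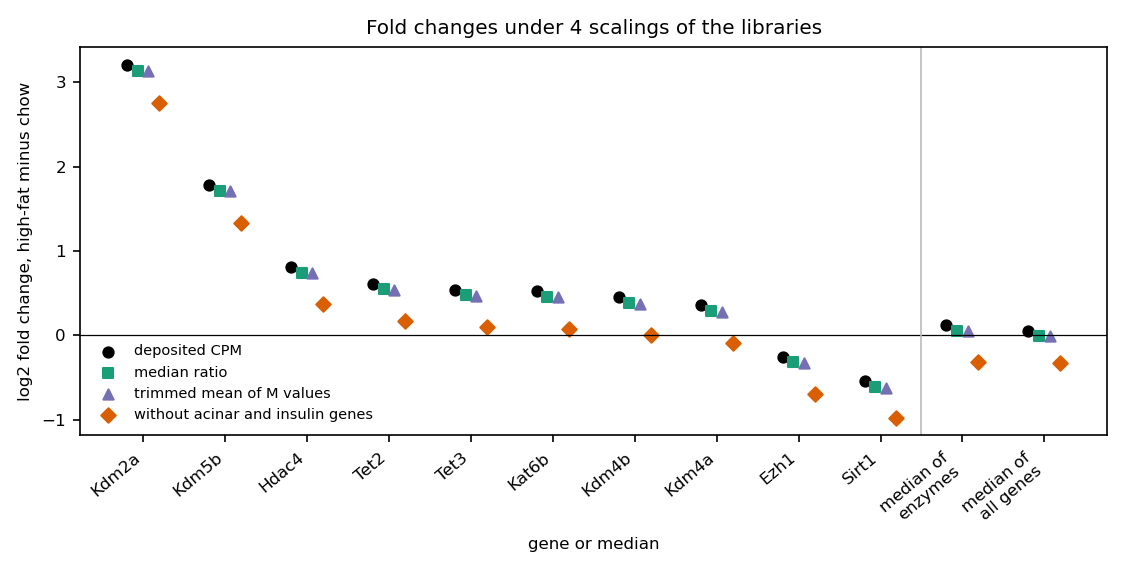
The y axis gives the log2 fold change (high-fat minus chow) under 4 scalings of the libraries, each with its own symbol, for the 10 enzyme genes past the threshold and for the medians of the 69 enzymes and of all 16939 genes on the x axis. Kdm2a stays between 2.75 and 3.21 in all 4, whereas the scaling without acinar and insulin genes moves the median of all genes to -0.33 and Kdm4a below 0.

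The partners of these enzymes, from lists of complex subunits, readers, enzymes under other names and suppliers of their metabolites, were read from the same fit. Of 185 tested, 23 were higher (12.4%) and 8 lower (4.32%), with a median of 0.13. Over all genes tested the shares were 14.9% and 8.78% and the median 0.05, so both partner shares lie below those of all genes, and the counts by list describe single genes. Among 11 partners of the lysine 4 methyltransferases, 3 rose and 0 fell: Men1, the menin scaffold of the Kmt2a complex, went from 27.3 and 30.7 CPM under chow to 40.6, 43 and 45.2 CPM under high-fat feeding (0.55 ± 0.09, limma adjusted p = 0.00798), and Paxip1, a subunit of the Kmt2c and Kmt2d complexes, rose by 0.56 ± 0.11. Menin restrains beta-cell division, and its loss gives islet tumours. Of 26 Polycomb partners, 2 rose and 3 fell. Bmi1, a ring-finger subunit of Polycomb repressive complex 1 that keeps the cell cycle inhibitor locus Ink4a silent, fell from 71.1 and 64.7 CPM to 42.1, 43.1 and 46.3 CPM (-0.62 ± 0.09, limma adjusted p = 0.00413). Eed, the core partner of both Ezh enzymes, was at 13.9 and 14.3 CPM versus 9.47, 10.7 and 9.94 CPM and fell as well (-0.45 ± 0.11, limma adjusted p = 0.0251), while Asxl1 rose by 0.46 ± 0.08.

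Of 28 partners of deacetylase complexes, 5 rose and 2 fell. Rcor3, a CoREST subunit, went from 21.4 and 21.8 CPM to 42.8, 53.2 and 45.7 CPM (1.09 ± 0.11, limma adjusted p = 0.00104), and Gatad2a, a NuRD subunit, from 32.7 and 41.8 to 74.8, 78.6 and 76.6 CPM (1.03 ± 0.11, limma adjusted p = 0.00164). Of 34 acetyltransferases and partners under other names, 3 rose, among them the coactivator Crebbp (38.4 and 63.6 against 97.5, 101 and 124 CPM), and 1 fell, Jade3, a scaffold of the Kat7 complex (89.1 and 111 against 55, 60.8 and 49.5 CPM). Of 23 lysine methyltransferases under other names, 5 rose and 0 fell. The lowest p-values were those of the gene named WHSC1, whose product (NSD2) dimethylates lysine 36 of histone H3 (44 and 44.4 against 64.3, 82.8 and 111 CPM), and of Ehmt2, the lysine 9 enzyme G9a (0.44 ± 0.11, limma adjusted p = 0.0271).

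For DNA methylation, 2 of 20 readers and partners rose and 2 fell. Uhrf1, which brings Dnmt1 to newly copied DNA, was low throughout, at 0.356 and 0.207 CPM under chow, then 3.63, 1.63 and 1.92 CPM under high-fat feeding (1.36 ± 0.26, limma adjusted p = 0.0126). Mbd6 fell by 0.54 ± 0.10 (limma adjusted p = 0.012). Of 13 genes listed under the supply of methyl and acetyl groups or NAD, 1 rose and 0 fell. It was Ahcyl2, by 0.35 ± 0.10 (limma adjusted p = 0.0484). Whether each gene on this list acts in that supply was not tested. Of 20 proliferation genes 1 passed, Birc5, at 0.106 and 0.243 CPM under chow, then 0.928, 0.684 and 0.851 CPM under high-fat feeding. The list's median fold change was 0.46, beside 0.05 for all genes tested, and ran from -0.39 (Mcm6) to 1.22 (Mki67). Mki67 and Top2a were highest in high-fat replicate 3 (16.6 and 10.1 CPM) and lowest on that diet in replicate 1 (3.84 and 2.68 CPM). Of 10 demethylases and arginine enzymes under other names 1 rose, Carm1, also called Prmt4 (0.35 ± 0.09, limma adjusted p = 0.0314), and 0 fell.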

How the data were processed

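RNA was extracted from isolated islets with Trizol and sequenced, per the labels. The submitters' processing notes name Partek. Version, aligner, build and counting rule: not given in the sources used here. No unit stands in the header; since 1 was the lowest value of each column, the deposited values were taken to be CPM with 1 added by the authors, and 1 was subtracted. The most frequent low value was taken as the worth of 1 read, which gave implied depths; 3 reads equal 0.0856 to 0.16 CPM, which covers counting error only.

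Fits used 5 libraries, on log2(CPM + 1), with limma 3.58.1 in R 4.3.3 (trend in the variance prior, Benjamini-Hochberg over 16939 genes averaging 0.5 CPM or more). The fit was tested on simulated data. Transcript lengths, overlaps and shared words came from GENCODE M21, promoters from RefSeq (GRCm38.p6). Named were all enzymes past the threshold, the 2 highest per kb in a family, the 5 nearest misses, 12 pairs and 2 called partners per list; others were named after their values were seen. Members and lists were chosen with earlier results of these data known. Some genes are not reported here.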

Additional observations from a re-analysis of the deposited data

How the results depend on the processing

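Kdm2a, Kdm5b and Sirt1 passed in all 17 alternatives and no enzyme passed in opposite directions. The counts of higher and lower enzymes, 8 and 2 with the deposited CPM, were 2 and 27 in a scaling without acinar and insulin genes, 5 and 1 with no filter, 17 and 4 with all 6 columns, 5 and 1 with the acinar covariate and 5 and 1 with no trend in the variance prior. Of all genes, 4.75% were higher and 38.3% lower without acinar and insulin genes, and 2.74% and 1.46% with no filter. The shares were 25.3% and 16.5% with all 6 columns, 6.28% and 3.96% with the acinar covariate and 11.8% and 7.61% with no trend. The fit to all 6 columns counts chow replicate 2, the mean of replicates 1 and 3, as a sample. Lower enzymes were 4 with median-ratio scaling and with TMM (trimmed mean of M values) scaling, and 1 with sample quality weights. Of all genes, 11.1%, 11.2% and 6.65% were lower in these settings. Leaving out 1 library gave 5 to 16 higher and 1 lower, with 16 higher without chow replicate 3. The enzymes' median of 0.12 became 0.049 with TMM scaling, 0.044 with the acinar covariate, 0.038 with length and GC trends removed and -0.32 without acinar and insulin genes, and ran from -0.0082 (without chow replicate 1) to 0.16 with 1 library left out. Partner genes, 23 higher and 8 lower, were 5 and 65 without acinar and insulin genes, 4 and 2 with no filter, 47 and 18 with all 6 columns, 7 and 3 with the acinar covariate, 13 and 5 with no trend, 14 higher with TMM scaling, 5 lower with length and GC trends removed, and 8 to 46 higher and 2 to 8 lower with 1 library left out. The sign turned without acinar and insulin genes for Ahcyl2 (-0.10), Carm1 (-0.092), Dnmt1 (-0.35), Dnmt3a (-0.32), Ehmt2 (-0.0099), Hdac11 (-0.27), Hdac5 (-0.15), Hdac6 (-0.35), Kat2a (-0.11), Kat6a (-0.26), Kat7 (-0.32), Kdm4a (-0.089), Kdm6b (-0.24), Kmt2c (-0.24), Kmt5a (-0.43), Prmt2 (-0.31), Prmt3 (-0.078), Prmt5 (-0.18), Setd1a (-0.28), Setd1b (-0.26), Setd5 (-0.25), Setd7 (-0.20), Sirt2 (-0.29). It turned with length and GC trends removed for Dnmt1 (-0.049), Dnmt3a (-0.062), Kdm6a (0.057), Kdm6b (-0.027), Kmt5a (-0.0037), Setd1b (-0.062), with the acinar covariate for Dnmt3a (-0.083), Kmt2c (-0.052), with median-ratio scaling for Kmt5a (-0.061) and with TMM scaling for Kmt5a (-0.069). With 1 CPM added, the ratio Ezh1/Ezh2 went to -0.0497 and Hdac1/Hdac2 to 0.0007. Leaving out 1 library turned the sign within these ranges: Dnmt1 (-0.022 to 0.18), Dnmt3a (-0.13 to 0.38), Hdac5 (-0.014 to 0.62), Kat6a (-0.035 to 0.43), Kdm6a (-0.089 to 0.0096), Kmt2c (-0.17 to 0.59), Kmt2e (-0.19 to 0.13), Kmt5a (-0.10 to 0.12), Prmt1 (-0.15 to 0.12), Prmt2 (-0.0082 to 0.23), Setd1b (-0.16 to 0.54), Sirt7 (-0.14 to 0.039), Ezh1/Ezh2 (-0.10 to 0.15), Hdac1/Hdac2 (-0.032 to 0.033), Setd1a/Setd1b (-0.45 to 0.41), Dnmt3a/Dnmt1 (-0.10 to 0.19), Tet2/Tet3 (-0.031 to 0.18), Kdm4a/Kdm4b (-0.26 to 0.064). Except for Kdm4a and partner genes, the turned values were of genes that had not passed, and the cause was not tested. The labels give no replicate numbers, so replicates were numbered here in sample order. The labels pair no chow sample with a high-fat sample, so no paired analysis was made.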
